A study of Mus musculus with 11 samples.

Results

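The comparison described here set tailbud tissue of mouse embryos homozygous for the Fgfr1 FCPG allele against wild-type tailbud, at embryonic day 8.5. Its members are the 3 libraries labelled Fgfr1 FCPG/FCPG and the 4 labelled wild type, 7 of the 11 libraries of the series, and they were chosen by the genotype in the column names of the deposited count table. The other 4 libraries come from the Fgfr1 FCSPG/FCSPG line and served only to estimate the spread between libraries. Tailbud was microdissected, polyA RNA was extracted and stranded mRNA libraries were sequenced. No agent or further allele is given for any group. The labels name neuromesodermal progenitors, somitic mesoderm and intermediate mesoderm as the cells of the tissue, and they do not give the strain, or whether a library came from 1 embryo or several. P-values therefore measure the spread between these libraries, which may in part be technical. The question of the comparison, per the series' design, is how transcription in early mesoderm differs when effector-binding residues of FGFR1 carry point mutations.

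FGFR1 is the main FGF receptor of the primitive streak and the early mesoderm. On ligand binding it phosphorylates itself and recruits adaptor and effector proteins, among them FRS2, CRK and CRKL, phospholipase C gamma and GRB14, which pass the signal to ERK and other kinases. In the tailbud, FGF signalling together with Wnt signalling is known to keep progenitors undifferentiated and to support the exit of cells into mesoderm. The account below turns to programmes other than visceral endoderm, Notch, somites and Hox, and gives the level of visceral endoderm genes only beside results with which it moves.

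Values are CPM, counts relative to the total of their library, scaled by the trimmed mean of M values (TMM), and a gene's values are given in the library order 24, 25, 26, 33 for wild type and 19, 45, 46 for FCPG, where the numbers are those of the count columns. Such a CPM value is a level within 1 gene and is not corrected for gene length. A log2 difference is FCPG minus wild type from edgeR's quasi-likelihood fit of all 11 libraries, adjusted by the Benjamini-Hochberg method over 16572 genes tested. In bulk tissue, fewer cells of a type and less RNA per cell cannot be told apart.

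Fgfr1 itself, on chromosome 8, was transcribed at the same order in both groups. Its levels were 185, 169, 206 and 209 CPM in the wild-type libraries and 242, 178 and 183 CPM in the FCPG libraries. The groups overlapped, with a log2 difference of 0.07 ± 0.16 (SE) and an adjusted p of 0.848 in edgeR. A point mutation need not alter the transcript level, so this value does not check the genotype labels.

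The libraries held 16014698 to 25453070 counts in all. The summed level of 27 tested visceral endoderm genes was 1063, 842, 349.9 and 1964 CPM in the wild-type libraries and 2678, 22755 and 6069 CPM in the FCPG libraries, so the groups did not overlap in it. FCPG libraries 19 and 45 were male by Y-linked counts and lack of Xist, and the other 5 libraries of the comparison were female. FCPG library 45 went against its tissue label in several defining markers. Cdx4, a caudal homeobox factor of the tailbud, stood at 263, 232, 170.5 and 246 CPM in wild type and at 151, 0.354 and 107 CPM in FCPG. Sox2, a factor of neuromesodermal and neural progenitors, stood at 46.03, 55.4, 49.2 and 40.3 CPM in wild type and at 54.03, 1.06 and 21.99 CPM in FCPG. The tailbud ligand gene Wnt3a stood at 31.9, 32.95, 21.9 and 48.9 CPM in wild type and at 47.4, 0.473 and 13.9 CPM in FCPG. T (brachyury) was present in all 7 libraries, at 128, 139.9, 100.1 and 123 CPM in wild type and 106, 23.2 and 65.6 CPM in FCPG. FCPG library 45 is thus the lowest in all 4 of these markers, and FCPG library 19 lies near wild type in 3 of them and below it in Cdx4. The 4 are part of 18 tailbud markers tested, of which 12 were lower and 6 higher in FCPG. Not all were lowest in library 45, and a marker outside the 4 was highest there. Over the 18, the median log2 ratio to the wild-type mean was 0.14, -2.49 and -1.13 in libraries 19, 45 and 46. Library 46 was thus also below wild type, by less than library 45. The median of each gene list below is therefore given with and without library 45. What part the visceral endoderm level, embryo sex or the tailbud marker level has in each result was not tested. Fits with the visceral endoderm level as a term are given below as values only. The groups did not overlap in that level, so such a fit cannot tell it apart from genotype, whether a difference shrinks or stays.

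At an adjusted p under 0.05, edgeR called 0 genes, 0.0% of the 16572 tested, and the smallest adjusted p was 0.104. At an unadjusted p under 0.05 it gave 2152 genes higher in FCPG, 13.0% of those tested, and 1472 lower, 8.88%. Every FCPG library lay above every wild-type library for 1254 genes, 7.57% of those tested, and below every one for 1157 genes, 6.98%. DESeq2's Wald test on the 7 libraries called 742 of the genes tested higher in FCPG, 4.48%, and 425 lower, 2.56%. The authors' deposited table, made with DESeq2, lists 767 genes higher and 433 lower in FCPG at an adjusted p under 0.05, over all genes in the count table. The count in edgeR rested on FCPG library 19, because without it 2701 of the genes tested here, 16.3%, were called in either direction. Limma-voom with library quality weights called 4031 genes and gave FCPG libraries 19 and 45 weights of 0.321 and 0.275, the lowest of the 11. In what follows a gene is called higher or lower in FCPG where the values lie that way, and the test is named wherever a call was made.

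Among genes outside the marker lists left aside, the 12 leading genes with higher levels in FCPG began with Porcn, Klb and Prss12. Porcn, the acyltransferase that adds palmitoleate to Wnt ligands and so permits their secretion, stood at 5.55, 6.52, 5.02 and 7.35 CPM in wild type and at 18.8, 14.7 and 11.7 CPM in FCPG. Its log2 difference was 1.30 ± 0.25 (SE), with an adjusted p of 0.104 in edgeR and of 2.10e-04 in DESeq2. Porcn is X-linked, and it was the only leading higher gene with its highest value in library 19, so that its log2 difference without library 45 was 1.31. Klb, beta-klotho, the co-receptor for endocrine FGFs, stood at 0.898, 1.22, 0.506 and 2.48 CPM in wild type and at 4.59, 54.3 and 14.5 CPM in FCPG. That is a 19.2-fold difference, with an adjusted p of 0.104 in edgeR and of 1.37e-05 in DESeq2. Without library 45 the log2 difference of Klb moved from 4.27 to 2.90. Prss12, which encodes the secreted serine protease neurotrypsin, stood at 0.846, 1.08, 1.13 and 2.95 CPM in wild type and at 7.18, 71.1 and 20.5 CPM in FCPG. Both genes were low in all wild-type libraries and highest in library 45.

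P2rx4, an ATP-gated cation channel found on lysosomes and the cell surface, stood at 3.07, 3.85, 2.296 and 4.19 CPM in wild type and 7.65, 48.6 and 12.8 CPM in FCPG. Enpp2, autotaxin, the secreted enzyme that makes lysophosphatidic acid, stood at 1.004, 1.46, 1.01 and 1.45 CPM in wild type and 3.38, 20.9 and 10.6 CPM in FCPG. Atp7b, the copper-transporting ATPase, stood at 7.399, 8.82, 7.16 and 8.02 CPM in wild type and 12.7, 81.2 and 27.1 CPM in FCPG. In each of the 3 the order among FCPG libraries was 19 below 46 below 45, the same as the order of the visceral endoderm level. Zfp512b, a zinc finger gene, differed less in size but had a narrow wild-type range, with 20.4, 22.7, 21.6 and 22.9 CPM in wild type and 39.4, 84.8 and 39.4 CPM in FCPG. Tmem68, an acyltransferase-like membrane protein, stood at 7.505, 7.65, 7.94 and 8.899 CPM in wild type and 17.4, 22.8 and 13.7 CPM in FCPG. For Rab6b, a Golgi GTPase, Tmc4, a transmembrane channel-like protein, Pafah2, a phospholipase of oxidised lipids, and Myo15b, an unconventional myosin, log2 differences were 1.94, 1.33, 2.52 and 2.92. With the mean visceral endoderm level as a term in the fit, the log2 differences of all 12 stayed positive, from 0.58 for Tmc4 to 1.53 for Myo15b, and none was called.

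The 12 leading genes with lower levels in FCPG included Asf1b, Uhrf1 and Cenpq. Asf1b, a histone chaperone of replicating chromatin, stood at 56.9, 49.4, 57.5 and 41.4 CPM in wild type and 34.5, 28.8 and 26.9 CPM in FCPG. Uhrf1, which brings the maintenance DNA methyltransferase to replicated DNA, stood at 496, 488, 478 and 424 CPM in wild type and 383, 299 and 321 CPM in FCPG. Cenpq, a part of the inner kinetochore, stood at 33.9, 30.7, 40.5 and 29.96 CPM in wild type and 23.4, 17.2 and 20.6 CPM in FCPG. The differences were small in size, 1.71-fold, 1.41-fold and 1.65-fold, with adjusted p of 0.104 for each in edgeR and of 0.00624, 0.0329 and 0.0146 in DESeq2. The splicing factor gene Tra2a stood at 288, 319, 288 and 315 CPM in wild type and 213, 192 and 244 CPM in FCPG. Hnrnpa3, another RNA-binding protein gene, stood at 122, 114, 129 and 104 CPM in wild type and 90.7, 80.1 and 80.1 CPM in FCPG. These lower genes varied little among the FCPG libraries, in contrast to the higher ones, and since separate ranges were a condition for being among the 24, that separation is no result.

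Dll4, a Notch ligand of early vessels, stood at 7.98, 12.5, 10.7 and 7.295 CPM in wild type and 4.696, 3.31 and 3.22 CPM in FCPG, a 2.57-fold difference with an adjusted p of 0.104 in edgeR and 0.00102 in DESeq2. Btg2, an antiproliferative gene induced by p53, stood at 31.98, 25.1, 70.01 and 14.8 CPM in wild type and 7.39, 8.86 and 11.3 CPM in FCPG. Scd2, a stearoyl-CoA desaturase that makes monounsaturated fatty acids, stood at 1452, 1019, 1356 and 812 CPM in wild type and 793, 457 and 565 CPM in FCPG. In Scd2 the gap between the groups was narrow, since wild-type library 33 lay just above FCPG library 19. Litaf, a protein of late endosomes, stood at 55.97, 55.7, 54.99 and 49.6 CPM in wild type and 36.1, 23.5 and 30.6 CPM in FCPG. Log2 differences of the remaining 3 were -0.58 for Cebpg, a bZIP factor, -0.46 for Mettl9, a histidine methyltransferase, and -2.0 for Gm49450, a gene with no function named here. Mettl9 was the only one of the 12 not called by DESeq2, with an adjusted p of 0.0655.

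**Figure D1:**
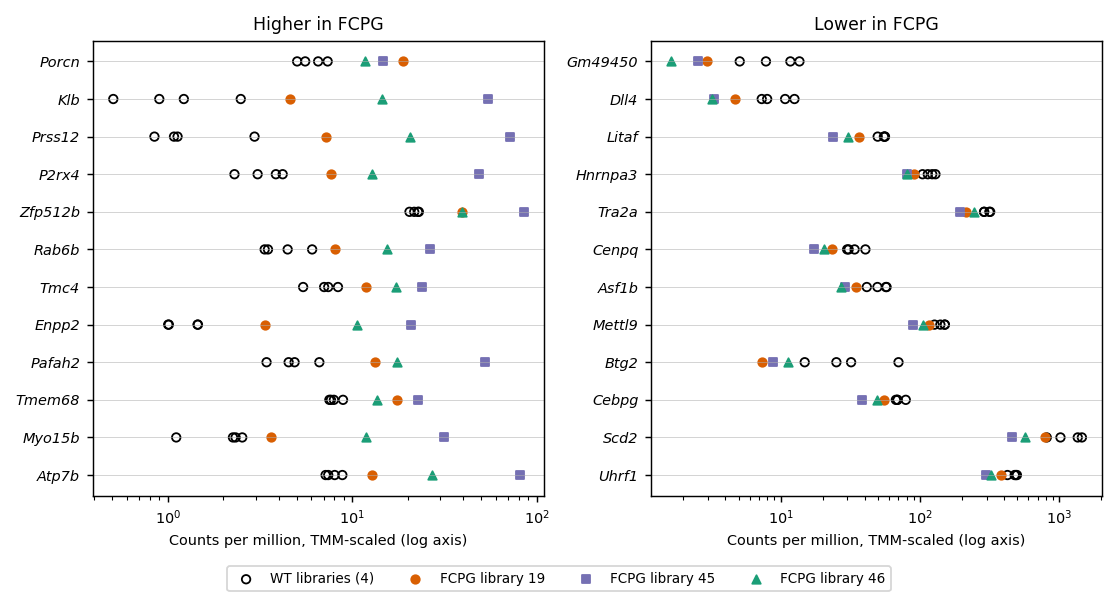
Levels of the 12 leading higher and 12 leading lower genes in FCPG tailbud, in TMM-scaled CPM on a log axis; open circles are the 4 wild-type libraries and filled symbols the 3 FCPG libraries. FCPG points lie on 1 side of all wild-type points in each row, with FCPG library 19 nearest to wild type in most higher genes.

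Genes of the lysosome were higher in FCPG as a group. Lysosomes are acid compartments in which hydrolases degrade what endocytosis and autophagy deliver. Of 43 lysosome genes tested, 39 were higher in FCPG and 4 lower, and the median log2 difference was 0.86, against 0.00 over all genes tested. Every FCPG library was above every wild-type library for 18 of them, 41.9% against 7.57% of all genes. DESeq2 called 17 higher, 39.5% against 4.48% of all genes, and 0 lower, against 2.56%. The proton pump that acidifies the lysosome, the V-ATPase, had 18 of 18 tested subunit genes higher, with a median of 0.71, and 6 of them did not overlap between groups, 33.3% against 7.57% of all genes.

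Some of the best separated members were hydrolases. Ctsb, the protease cathepsin B, stood at 84.7, 85.6, 65.5 and 117 CPM in wild type and 169, 761 and 273 CPM in FCPG. Its log2 difference was 2.19 ± 0.50 (SE), with an adjusted p of 0.104 in edgeR and 4.54e-04 in DESeq2. Lgmn, the asparaginyl endopeptidase legumain, stood at 57.2, 63.2, 30.6 and 148 CPM in wild type and 197, 1602 and 386 CPM in FCPG. The wild-type library with the highest Lgmn, 33, was also the wild-type library with the highest visceral endoderm level. Ctsz, a carboxypeptidase cathepsin, stood at 67.1, 90.2, 45.2 and 82.7 CPM in wild type and 136, 459 and 161 CPM in FCPG. Hexa, a subunit of beta-hexosaminidase, stood at 30.8, 38.2, 23.9 and 35.96 CPM in wild type and 47.6, 136 and 70.9 CPM in FCPG. Lower members were few, and Scarb2, the receptor that carries glucocerebrosidase to lysosomes, had a log2 difference of -0.38, Naglu one of -0.25 and Gusb one of -0.10, none of them called.

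Among pump subunits, Atp6v1a, the catalytic A subunit, stood at 82.7, 73.5, 91.6 and 118 CPM in wild type and 123, 408 and 156 CPM in FCPG. Its log2 difference was 1.33, with an adjusted p of 0.115 in edgeR and 0.025 in DESeq2. Atp6ap2, the X-linked accessory protein also known as the prorenin receptor, stood at 28.8, 35.2, 32.9 and 39.9 CPM in wild type and 47.2, 116 and 55.6 CPM in FCPG. Atp6v1e1 in the peripheral stalk stood at 76.6, 74.2, 64.02 and 77.3 CPM in wild type and 84.4, 162 and 110.2 CPM in FCPG, and DESeq2 did not call it, at an adjusted p of 0.0608. In all 3 subunits FCPG library 19 was just above the highest wild-type library and library 45 far above it.

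A pair of members of the MiT family of transcription factors, which is known to bind promoters of lysosome genes, were also higher. Tfeb, known as an activator of lysosome genes, stood at 1.64, 2.25, 1.28 and 4.14 CPM in wild type and 6.33, 50.1 and 11.2 CPM in FCPG, a 9.699-fold difference with an adjusted p of 0.104 in edgeR and 2.38e-04 in DESeq2. Its relative Tfec stood at 0.211, 1.27, 0.3503 and 1.45 CPM in wild type and 3.11, 38.9 and 7.898 CPM in FCPG, a 20.3-fold difference. Tfec was named after its values were seen. Other members of the family, among them Tfe3 of the autophagy list, are not reported here, so the pair does not describe the family. In both genes the order among FCPG libraries was that of the visceral endoderm level. Their log2 differences with that level as a term, or without the FCPG library highest in it, are not given here.

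MiT factors are known to bind an E-box with the letters TCACGTGA, which reads the same on both strands. RefSeq promoter windows of build GRCm38.p6, from 250 bases before to 50 after the transcript start, were matched by symbol to 11671 of the genes tested, and 2.05% of them held these letters. They were found in 4 of the 35 lysosome genes and 3 of the 13 V-ATPase genes with a window, 7 of 48 or 14.6% together. With the last letter left off, TCACGTG on either strand, which contains no other motif searched but lies within the longer one, the share was 6.73% of all windows and 29.2% of the 48. A match describes letters in a window and is no evidence of binding. The 250 bases before the start are shown for the pump subunit with the best separation that held the motif and for cathepsin D, as examples of where the letters, in capitals, lie.
Atp6v1a (GRCm38.p6 chr16:44139260-44139509, minus strand): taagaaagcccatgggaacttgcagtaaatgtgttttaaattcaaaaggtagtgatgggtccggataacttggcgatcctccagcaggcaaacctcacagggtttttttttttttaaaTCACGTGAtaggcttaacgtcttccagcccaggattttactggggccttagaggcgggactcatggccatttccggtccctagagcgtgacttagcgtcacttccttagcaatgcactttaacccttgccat
Ctsd (GRCm38.p6 chr7:142387828-142388077, minus strand): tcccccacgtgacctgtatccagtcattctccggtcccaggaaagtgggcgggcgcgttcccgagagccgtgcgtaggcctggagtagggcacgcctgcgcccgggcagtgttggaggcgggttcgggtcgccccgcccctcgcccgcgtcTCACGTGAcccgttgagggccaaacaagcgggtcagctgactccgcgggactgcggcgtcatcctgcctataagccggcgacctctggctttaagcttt

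The levels do not follow the motif gene by gene. Ctsd, which holds it, stood at 66.4, 79.7, 66.9 and 68.97 CPM in wild type and 67.5, 136 and 74.6 CPM in FCPG, and the groups overlapped. Gla, alpha-galactosidase A, also holds it and had a log2 difference of 0.10.

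The lysosome group was higher to a different degree in each FCPG library. Its median log2 ratio to the wild-type mean was 0.18, 1.58 and 0.47 in libraries 19, 45 and 46. The V-ATPase medians were 0.19, 1.23 and 0.44 in the same order. Without library 45, the fitted medians were 0.35 for lysosome genes and 0.36 for V-ATPase genes. With the visceral endoderm level as a term they were 0.16 and 0.01. None of the lysosome or V-ATPase list genes is also in the visceral endoderm list, whose summed level in the 3 libraries has the same order.

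**Figure D2:**
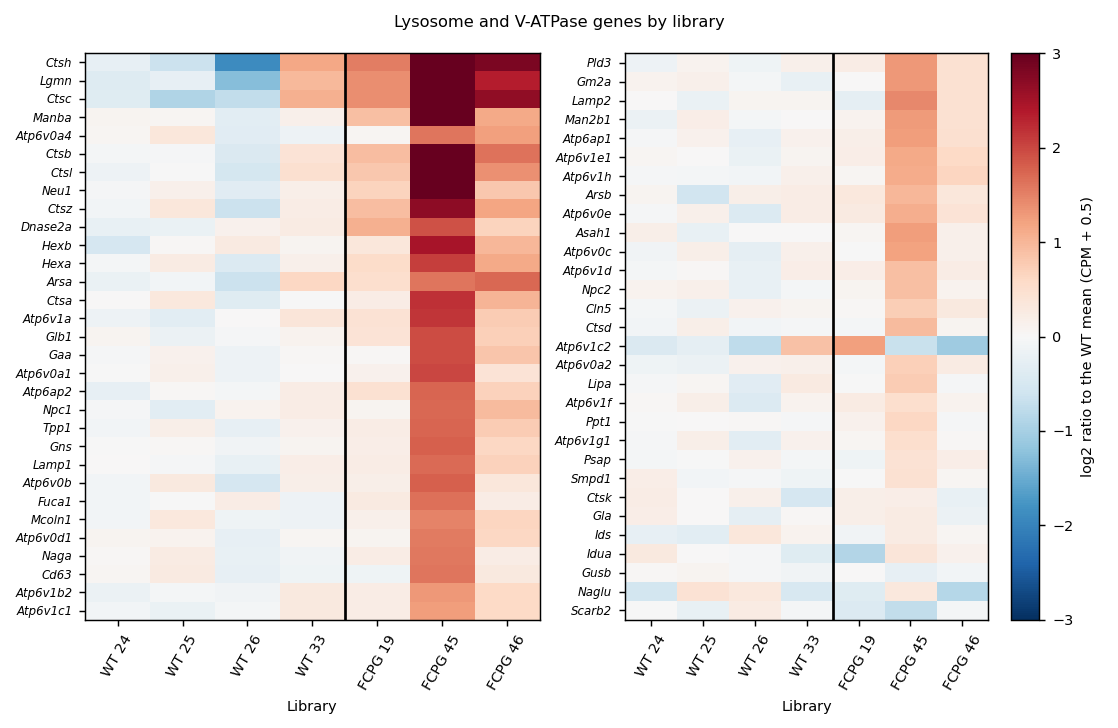
Log2 ratio of each tested lysosome and V-ATPase gene to the wild-type mean, after adding 0.5 CPM, with 1 column a library and genes in order of the fitted difference; red is above the wild-type mean and blue below, and the black line parts wild type from FCPG. FCPG library 45 is the reddest column, library 46 is intermediate and library 19 is closest to wild type.

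The rest of the membrane traffic system moved by less. Of 44 genes of the secretory pathway, 40 were higher, but the median log2 difference was 0.22, and 0.07 without library 45. Sec24d, a cargo adaptor of COPII vesicles, stood at 13.9, 12.4, 20.2 and 21.1 CPM in wild type and 23.4, 79.2 and 36.6 CPM in FCPG. Kdelr3, a retrieval receptor of the endoplasmic reticulum, stood at 4.92, 6.06, 3.19 and 9.62 CPM in wild type and 11.6, 70.7 and 16.3 CPM in FCPG. Its log2 difference of 2.47 became -0.14 with the visceral endoderm level as a term. Among 60 endocytosis genes, 43 were higher, with a median of 0.19 and 0.04 without library 45. Eea1, the tether of early endosomes, stood at 22.4, 19.4, 26.8 and 33.01 CPM in wild type and 35.99, 122 and 53.2 CPM in FCPG. Rab4a, a GTPase of rapid recycling, stood at 26.1, 27.1, 20.4 and 33.5 CPM in wild type and 39.7, 119 and 44.8 CPM in FCPG. Clathrin heavy chain, Cltc, overlapped between groups, with a log2 difference of 1.06, and the sorting nexin Snx4 did not, with one of 0.59. In the autophagy list, 14 of 26 genes were higher and 12 lower, with a median of 0.06 and 0.03 without library 45.

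Epithelial genes were higher in FCPG. These encode junction, polarity and brush border proteins of epithelia. Of these, it is junctions that mesoderm cells are known to give up when they leave the streak. Of 40 tested, 31 were higher and 9 lower, the median log2 difference was 0.67, and 15 did not overlap between groups, 37.5% against 7.57% of all genes. Cdh1, E-cadherin, stood at 70.98, 76.5, 54.5 and 104 CPM in wild type and 163, 266 and 113 CPM in FCPG. Zeb1, a repressor of E-cadherin, stood at 52.5, 45.95, 75.03 and 31.5 CPM in wild type and 24.01, 20.97 and 26.7 CPM in FCPG. The 2 genes differed in opposite directions, by 1.24 and -1.10 on the log2 scale, with adjusted p of 0.118 and 0.145 in edgeR and 0.00894 and 0.012 in DESeq2. With the visceral endoderm level as a term the log2 differences were 0.14 and 0.00, so the opposite directions were not seen there. Zeb1 is no member of the epithelial list. The list of mesenchymal transition and cadherin genes, which holds both, had 6 of 19 genes higher and 13 lower. Its median was -0.09, the same without library 45 and 0.05 with the visceral endoderm level as a term. Of the 19, 3 lay below wild type in every FCPG library, 15.8% against 6.98% of all genes, and 1 above, 5.26% against 7.57%. Llgl2, a basolateral polarity protein, stood at 40.2, 48.96, 40.1 and 65.9 CPM in wild type and 82.3, 144 and 85.6 CPM in FCPG. Cgn, the tight junction protein cingulin, stood at 27.96, 24.9, 21.99 and 41.4 CPM in wild type and 55.9, 103 and 44.7 CPM in FCPG. Both separated the groups in every library. Espn, the actin bundler of microvilli, and Ap1m2, an epithelial clathrin adaptor, had log2 differences of 2.58 and 1.70. Claudins went both ways, since Cldn6 and Cldn7 were higher by 1.65 and 1.31 while Cldn9 had a log2 difference of -1.38 and Cldn4 of -0.96; Cldn9 and Cldn4 were picked after their values were seen. The epithelial median was 0.38, 1.14 and 0.39 in FCPG libraries 19, 45 and 46, 0.38 without library 45, and 0.00 with the visceral endoderm level as a term.

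Solute carriers, the largest family of transporters, were more often higher than lower. Of 262 tested, 65 lay above wild type in every FCPG library, 24.8% against 7.57% of all genes, and 18 lay below it, 6.87% against 6.98%. The family median was 0.30, 0.15 without library 45 and 0.09 with the visceral endoderm level as a term. Slc16a11, a monocarboxylate carrier, stood at 0.264, 0.6102, 0.311 and 0.517 CPM in wild type and 2.48, 14.7 and 2.86 CPM in FCPG. Slc7a8, a carrier of neutral amino acids, stood at 2.27, 4.04, 1.44 and 6.83 CPM in wild type and 12.2, 143 and 39.9 CPM in FCPG. Slc52a3, a riboflavin carrier, was low throughout, at 0.106, 0.235, 0.156 and 0.3104 CPM in wild type and 0.633, 3.84 and 1.52 CPM in FCPG. These 3 genes ranged from 9.65-fold to 17.95-fold higher, all with an adjusted p of 0.104 in edgeR. Abundant carriers showed smaller differences. Slc2a3, the glucose carrier GLUT3, stood at 1428, 1445, 1043 and 1998 CPM in wild type and 2096, 6685 and 2591 CPM in FCPG. Slc16a1, the lactate carrier MCT1, stood at 293, 316, 238 and 461 CPM in wild type and 571, 2333 and 576 CPM in FCPG. Hexokinase 1, Hk1, was lower, at 29.9, 29.9, 39.9 and 16.1 CPM in wild type and 15.1, 9.51 and 11.5 CPM in FCPG. The glycolysis list as a whole had 6 of 24 genes higher and a median of -0.18, -0.15 without library 45.

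The list of metallothioneins and zinc transporters repeats part of the carriers, since 15 of its 18 tested genes are solute carriers and 1 is also in the visceral endoderm list. It had 15 genes higher, a median of 0.48 and 0.20 without library 45. The zinc importers Slc39a4 and Slc39a8 and the metal-binding metallothionein Mt1 led the list. Slc39a4 stood at 4.44, 2.96, 1.91 and 9.83 CPM in wild type and 10.98, 103 and 25.2 CPM in FCPG. Slc39a8 stood at 34.99, 30.2, 38.3 and 68.97 CPM in wild type and 94.3, 383 and 102 CPM in FCPG. Mt1 stood at 13.1, 16.3, 4.59 and 11.95 CPM in wild type and 25.5, 149.6 and 32.2 CPM in FCPG. All 3 separated the groups, and with the visceral endoderm level as a term their log2 differences of 3.29, 2.16 and 2.59 became 0.22, 0.41 and -0.01.

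Peroxisome genes differed by a small size. Peroxisomes oxidise very long fatty acids and are assembled by peroxin proteins. Of 20 tested, 15 were higher and 8 of these did not overlap between groups, 40% against 7.57%. DESeq2 called 2 higher, 10% against 4.48% of all genes, and 0 lower, against 2.56%. Abcd4, a cobalamin transporter of the half-transporter family, stood at 16.1, 20.4, 10.2 and 19.1 CPM in wild type and 24.5, 89.9 and 39.2 CPM in FCPG. Pex26, the membrane anchor of the export complex, stood at 13.95, 16.1, 14.3 and 18.5 CPM in wild type and 22.4, 26.4 and 29.8 CPM in FCPG. Pex5, the import receptor, stood at 50.9, 53.98, 46.5 and 57.1 CPM in wild type and 58.8, 95.2 and 73.9 CPM in FCPG. The median of the list was 0.31, it was 0.19, 0.45 and 0.18 in FCPG libraries 19, 45 and 46, and it was 0.25 without library 45, so all 3 libraries were above wild type, though it was 0.06 with the visceral endoderm level as a term.

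Amino acid, lipid and plasma protein genes were more often higher than lower. Of 23 amino acid metabolism genes, 16 were higher and 8 did not overlap between groups, 34.8% against 7.57% of all genes, with a median of 0.53 that was 0.31 without library 45 and 0.32 without library 19. Ass1 of the urea cycle stood at 5.29, 5.87, 5.68 and 10.97 CPM in wild type and 19.6, 141 and 19.2 CPM in FCPG. Gldc of the glycine cleavage system stood at 94.97, 92.4, 74.6 and 138 CPM in wild type and 156, 860.1 and 228 CPM in FCPG. Otc, an X-linked urea cycle enzyme, was near 0 in wild type, at 0.106, 0.0939, 0 and 0.103 CPM, and stood at 0.158, 5.73 and 1.58 CPM in FCPG. All 3 were by far the highest in library 45. Of 37 lipid metabolism genes, 24 were higher, with a median of 0.38 that was 0.02 without library 45. Ehhadh, an enzyme of peroxisomal beta-oxidation, stood at 2.11, 1.69, 2.41 and 4.14 CPM in wild type and 6.02, 37.6 and 8.02 CPM in FCPG. Elovl1, an elongase of very long fatty acids, and Dgat2, an enzyme of triglyceride synthesis, had log2 differences of 1.35 and 1.72. Of 26 complement and coagulation genes, 18 were higher and 8 lower, and the median of 1.33 was 0.33 without library 45. Coagulation factor X, F10, stood at 0.37, 0.563, 0.584 and 2.33 CPM in wild type and 5.07, 38.5 and 9.54 CPM in FCPG. Antithrombin, Serpinc1, stood at 0.37, 0.282, 0.0778 and 0.983 CPM in wild type and 1.74, 13.5 and 3.28 CPM in FCPG. Medians with the visceral endoderm level as a term were 0.07, 0.00 and 0.05 for the 3 lists.

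**Figure D3:**
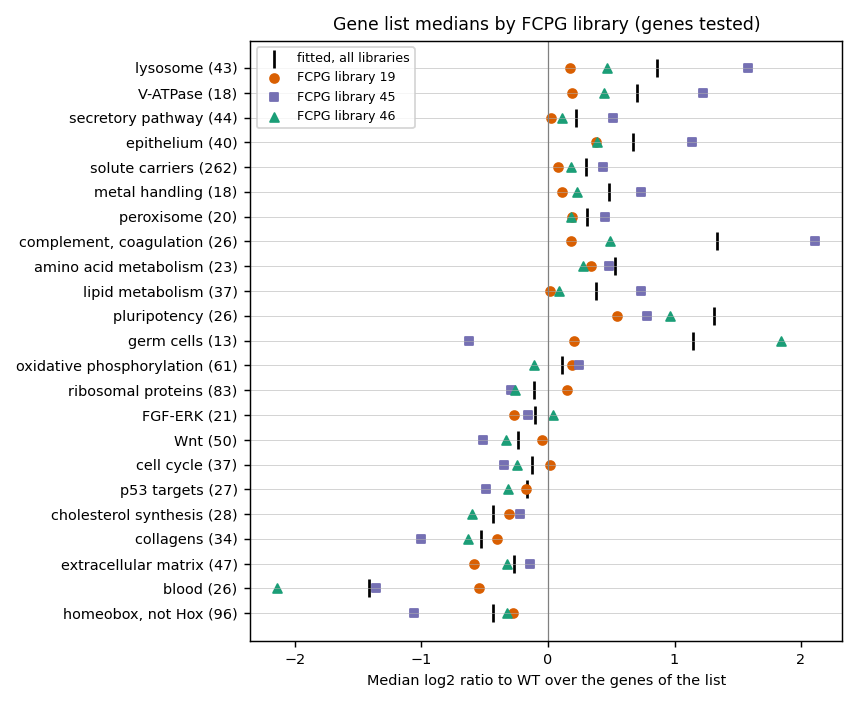
Median log2 ratio to wild type over the tested genes of each list, with their number in brackets; coloured symbols are the ratios of single FCPG libraries to the wild-type mean after adding 0.5 CPM, and black bars are medians of edgeR's fitted differences. Lysosome, epithelium and carrier lists lie to the right of 0 in all 3 FCPG libraries and cholesterol synthesis, collagens and blood to the left.

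Pluripotency genes were higher in FCPG. These genes mark the epiblast and are lost as cells differentiate. Of 26 tested, 24 were higher and 2 lower, with a median log2 difference of 1.31, and 7 did not overlap between groups, 26.9% against 7.57% of all genes. Nanog, a core pluripotency factor, stood at 0.264, 0.282, 0.739 and 1.81 CPM in wild type and 4.22, 5.97 and 17.98 CPM in FCPG. Its log2 difference was 3.59 ± 0.96 (SE), with an adjusted p of 0.109 in edgeR and 1.94e-04 in DESeq2. Unlike most higher genes, Nanog was highest in library 46, and its log2 difference without library 45 was 3.83. L1td1, an RNA-binding protein of pluripotent cells, stood at 5.71, 3.61, 3.81 and 12.6 CPM in wild type and 15.8, 93.5 and 57.7 CPM in FCPG. Tfcp2l1, a factor of naive pluripotency also made in epithelia, stood at 4.28, 3.43, 2.14 and 12.1 CPM in wild type and 17.2, 105 and 33.05 CPM in FCPG. Trap1a, an X-linked gene, stood at 7.399, 5.26, 3.35 and 17.2 CPM in wild type and 20.8, 106 and 21.7 CPM in FCPG. Wild-type library 33 was the highest wild-type library in all 4.

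That library stood further apart in Pou5f1, the pluripotency factor OCT4, named here after its values were seen. Pou5f1 was at 3.38, 4.32, 2.26 and 75.02 CPM in wild type and 157, 21.8 and 103 CPM in FCPG. Libraries 33, 19 and 46 were high and the other 4 low, so the groups overlapped, with an adjusted p of 0.341 in edgeR. The pluripotency median was 0.55, 0.78 and 0.96 in FCPG libraries 19, 45 and 46, 1.27 without library 45, and 0.14 with the visceral endoderm level as a term. Markers of some other early tissues lay the same way. Trophoblast genes had 13 of 14 higher and a median of 0.95, which was 0.05, 0.83 and 1.21 in FCPG libraries 19, 45 and 46, 0.72 without library 45 and 0.46 without library 46. Only 1 of the 14 lay above wild type in every FCPG library, 7.14%, near the 7.57% of all genes. Some of the 14, among them Krt8, Krt18 and Hand1, are also in lists of other tissues. Definitive endoderm and gut genes, 3 of which are also in the visceral endoderm list, had 16 of 21 higher and a median of 0.60, 0.34 without library 45. Of the 21, 5 lay above wild type in every FCPG library, 23.8%, and 1 below, 4.76% against 6.98% of all genes. With the visceral endoderm level as a term these 2 medians were 0.01 and -0.12. Other early lists did not lie this way. Medians were -0.30 for surface ectoderm and amnion, -0.21 for notochord and node and 0.09 for primitive streak and Nodal signalling. Without library 45 they were 0.06, -0.17 and 0.19. What part these tissues have in the pluripotency values was not tested.

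Germ cell genes had a median of 1.15 over 13 genes, 12 of them higher, but the value came from library 46. Medians were 0.20, -0.62 and 1.84 in FCPG libraries 19, 45 and 46. Prdm14, a factor needed for primordial germ cells, stood at 0.423, 0.798, 0.389 and 1.24 CPM in wild type and 0.897, 0.118 and 18.8 CPM in FCPG, and its log2 difference was -0.46 without library 46. Prdm1, or BLIMP1, stood at 9.09, 8.31, 11.7 and 8.23 CPM in wild type and 6.44, 22.9 and 33.05 CPM in FCPG. Ddx4, the germ cell helicase VASA, did not overlap between groups, at 0.7399, 0.704, 1.09 and 2.43 CPM in wild type and 3.85, 11.9 and 6.93 CPM in FCPG. The list median was 1.64 without library 45 and lay between -0.12 and 1.64 when 1 library was left out, the lowest of which is without library 46.

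Genes of cholesterol synthesis were lower in FCPG, against the direction of most other metabolic lists. The pathway turns acetyl-CoA into sterols and is switched on by SREBF2 when cell sterol is low. Of 28 genes tested, 23 were lower and 5 higher, with a median log2 difference of -0.43. The groups did not overlap for 4 lower genes, 14.3% against 6.98% of all genes, and for 1 higher one, 3.57% against 7.57%. DESeq2 called 3 lower, 10.7% against 2.56% of all genes, and 0 higher, against 4.48%. Hmgcs1, HMG-CoA synthase, stood at 229, 158, 175 and 129 CPM in wild type and 123, 85.5 and 89.5 CPM in FCPG. Its log2 difference was -0.80 ± 0.20 (SE), with an adjusted p of 0.104 in edgeR and 0.0336 in DESeq2. Cyp51, lanosterol demethylase, stood at 119, 71.6, 83.8 and 54.3 CPM in wild type and 41.5, 42.9 and 43.7 CPM in FCPG. The 3 FCPG values of Cyp51 lay close together, all below the lowest wild-type value.

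Mvd, mevalonate decarboxylase, stood at 39.1, 36.7, 26.7 and 24.7 CPM in wild type and 23.9, 17.96 and 12.8 CPM in FCPG. Idi1, isopentenyl-diphosphate isomerase, stood at 63.1, 34.6, 64.1 and 32.9 CPM in wild type and 31.1, 22.4 and 15.4 CPM in FCPG. Squalene synthase, Fdft1, met wild-type library 33 at its upper end, with 81.1, 64.1, 57.1 and 47.6 CPM in wild type and 47.6, 39.9 and 41.1 CPM in FCPG. In these enzymes wild-type library 33 was the lowest of its group and close to FCPG library 19. The groups overlapped in Srebf2, the gene of the sterol regulator named above, with a log2 difference of -0.24. Msmo1, a sterol demethylating enzyme, and Insig1, which holds the SREBF proteins in the endoplasmic reticulum, had log2 differences of -0.77 and -0.75; neither was called by edgeR, and their groups overlapped. The 2 leading higher members were Stard4, a sterol carrier, at 68.7, 48.5, 54.4 and 59.9 CPM in wild type and 65.1, 197 and 79.3 CPM in FCPG, and Hsd17b7, at 23.3, 21.6, 21.6 and 29.3 CPM in wild type and 31.6, 60.4 and 30.5 CPM in FCPG.

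The summed level of the cholesterol genes overlapped between groups, at 2105, 1589, 1781 and 1394 CPM in wild type and 1432, 1665 and 1175 CPM in FCPG. The median log2 ratio of the list to the wild-type mean was -0.31, -0.22 and -0.60 in FCPG libraries 19, 45 and 46, so it was lower in all 3. It was -0.54 without library 45, -0.52 without library 19 and -0.28 with the visceral endoderm level as a term. When 1 library was left out it ran from -0.55 to -0.30. In the single female FCPG library against the wild-type libraries the cholesterol median was -0.62. Several higher lists had smaller medians in that comparison than over all libraries. These were 0.46 for lysosome, 0.44 for V-ATPase, 0.38 for epithelial, 0.08 for lipid and 0.77 for complement and coagulation genes. Pluripotency and trophoblast medians were 1.29 and 1.30 there, and the oxidative phosphorylation median was -0.12.

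SREBF2 is known to bind sterol elements such as TCACNCCAC, searched on both strands. It was in 1 of the 20 cholesterol genes with a RefSeq promoter window, Hmgcs1, and in 1.44% of all 11671 windows. The shorter form TCACNCCA was in 3 of the 20, or 15.0%, and in 4.54% of all windows, and the search of it includes every match of the longer. The window of Hmgcs1 is shown because this gene has both the element, in capitals, and the smallest p of the list.
Hmgcs1 (GRCm38.p6 chr13:119690101-119690350, plus strand): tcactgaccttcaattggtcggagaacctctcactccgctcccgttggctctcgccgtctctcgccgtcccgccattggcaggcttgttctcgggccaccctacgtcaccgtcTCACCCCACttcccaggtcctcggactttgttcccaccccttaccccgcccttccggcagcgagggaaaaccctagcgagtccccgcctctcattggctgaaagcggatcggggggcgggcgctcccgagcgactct

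**Figure D4:**
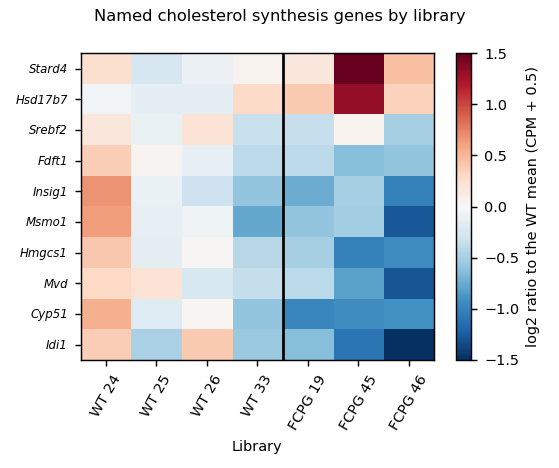
Log2 ratio of the 10 cholesterol synthesis genes named above to the wild-type mean, after adding 0.5 CPM, with 1 column a library; red is above the wild-type mean and blue below, and the black line parts wild type from FCPG. Blue fills the lower rows in all 3 FCPG libraries, and wild-type library 33 is blue in many of the same rows.

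Genes of DNA replication were more often lower in FCPG by a small size, while their share with separate groups stayed near the background. Of 37 tested, 31 were lower, the median log2 difference was -0.12, and 2 members lay below wild type in every FCPG library, 5.41% against 6.98% of all genes, and 1 above, 2.703% against 7.57%. At an unadjusted p under 0.05 edgeR gave 8 of the 37 lower and 0 higher, against 8.88% and 13.0% of all genes. Without library 19 edgeR called 12 of the 37 lower and 0 higher, against 1037 lower and 1664 higher of the 16572 genes. The median was -0.10 without library 45, -0.27 without library 19 and -0.04 with the visceral endoderm level as a term. The direction was not shared by all libraries, as medians were 0.02, -0.34 and -0.24 in FCPG libraries 19, 45 and 46. Rfc3, a subunit of the clamp loader, stood at 101, 107, 90.8 and 89.4 CPM in wild type and 91.8, 62.3 and 65.1 CPM in FCPG. Ccnd2, a D-type cyclin of the G1 phase, stood at 446, 439, 480.0 and 369.7 CPM in wild type and 322, 173 and 269 CPM in FCPG. Its partner kinase gene Cdk6 stood at 58.6, 52.01, 67.8 and 48.8 CPM in wild type and 44.01, 27.7 and 39.4 CPM in FCPG. Both separated the groups, and DESeq2 called Ccnd2, at an adjusted p of 0.0359, and not Cdk6, at 0.0863. Mycn, a growth-promoting factor, overlapped by library 19, at 158, 190.2, 208 and 157 CPM in wild type and 162, 90.4 and 119.9 CPM in FCPG. Cdkn2a, which encodes cell cycle inhibitors, was low, at 1.11, 0.798, 0.973 and 1.76 CPM in wild type and 1.69, 12.1 and 2.86 CPM in FCPG. The mitosis list had 13 genes higher and 20 lower, with a median of -0.04 and -0.03 without library 45.

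Of 27 p53 target genes, 7 lay below wild type in every FCPG library, 25.9% against 6.98% of all genes, and 0 lay above, against 7.57%. The median was -0.17, with 9 higher and 18 lower. DESeq2 called 4 lower, 14.8% against 2.56% of all genes, and 0 higher, against 4.48%. Beside Btg2, Eda2r, an X-linked death receptor, stood at 5.13, 5.12, 6.77 and 3.78 CPM in wild type and 1.95, 0.473 and 1.88 CPM in FCPG. Ei24 stood at 95.98, 98.6, 103 and 88.4 CPM in wild type and 76.8, 66.8 and 68.6 CPM in FCPG. The members that separated the groups differ in size, from 1.37-fold in Ei24 to 3.87-fold in Btg2. The classic targets Cdkn1a, encoding p21, and Mdm2, the ligase that degrades p53, had log2 differences of 0.22 and 0.13, and Tigar, which limits glycolysis, had 0.65. Medians were -0.17, -0.49 and -0.31 in FCPG libraries 19, 45 and 46, -0.11 without library 45, -0.30 without library 19 and -0.04 with the visceral endoderm level as a term.

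The transcripts that report FGF and ERK activity did not separate the groups. Of 21 feedback and target genes, 10 were higher and 11 lower, the median was -0.10, and 0 and 0 lay above or below wild type in every FCPG library, against 7.57% and 6.98% of all genes. Without library 45 the median was 0.03, so its sign turned, and it ran from -0.24 to 0.03 when 1 library was left out. edgeR called 0 of them, as of all genes, and DESeq2 called 0 higher and 0 lower, against 4.48% and 2.56% of all genes. Without library 19 edgeR called 4 of the 21 lower and 1 higher, against 1037 lower and 1664 higher of the 16572 genes. Dusp6, the ERK phosphatase that is itself an ERK target, came nearest, at 119, 125, 161 and 79.99 CPM in wild type and 57.1, 72.5 and 80.4 CPM in FCPG, with an adjusted p of 0.115 in edgeR and 0.0522 in DESeq2. Only FCPG library 46 reached the lowest wild-type library, 33, in Dusp6. Spry2 and Spry4, feedback inhibitors of the receptor, had log2 differences of 0.01 and -0.22. Etv5 and Etv4, ETS factors downstream of FGF, had 0.33 and -1.17, with adjusted p of 0.308 and 0.183. A p above the threshold does not show equal activity, and the standard error of Dusp6 alone was 0.23.

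FGF ligands and receptors were mixed. Fgf9, a ligand, stood at 20.7, 19.2, 14.01 and 2.74 CPM in wild type and 1.48, 0.295 and 0.182 CPM in FCPG, 21.1-fold lower, with an adjusted p of 0.104 in edgeR and 1.06e-05 in DESeq2. Wild-type library 33 was near the FCPG level in it. Fgf17, a tailbud ligand, stood at 43.2, 39.5, 51.1 and 11.3 CPM in wild type and 7.39, 0 and 3.58 CPM in FCPG, with the same library nearest to FCPG. Fgf8 overlapped, at 28.1, 52.01, 27.5 and 26.6 CPM in wild type and 36.4, 5.26 and 30.4 CPM in FCPG. Among receptors, Fgfr4 stood at 4.65, 6.57, 3.58 and 7.24 CPM in wild type and 11.5, 68.3 and 14.5 CPM in FCPG, and Fgfr3 at 17.9, 19.01, 13.7 and 26.3 CPM and 29.3, 71.5 and 49.9 CPM. Fgfr4, a receptor that can pair with Klb, had an adjusted p of 0.104 in edgeR and 0.00144 in DESeq2. Its log2 difference of 2.51 became 1.23 without library 45 and 0.59 with the visceral endoderm level as a term. Fgfr2 had a log2 difference of -0.29.

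Effectors that the receptor recruits had 13 of 26 genes higher and 13 lower, with a median of 0.02 and -0.02 without library 45. Log2 differences were 0.46 for Frs2, -0.03 for Crkl, -0.24 for Plcg1 and -0.02 for Grb2, none of them called. Grb14, an adaptor that inhibits receptor kinases, stood at 3.01, 2.82, 2.37 and 2.64 CPM in wild type and 3.69, 7.38 and 4.25 CPM in FCPG. Shf, an adaptor with an SH2 domain, stood at 67.6, 77.5, 60.3 and 52.05 CPM in wild type and 50.2, 14.5 and 19.6 CPM in FCPG. Both separated the groups, in opposite directions, and neither was called by edgeR or DESeq2. Nf1, a Ras inhibitor, was lower, at 59.8, 52.1, 66.5 and 44.9 CPM in wild type and 38.3, 29 and 39.2 CPM in FCPG, and DESeq2 called it at an adjusted p of 0.0452. Stat3 was higher in libraries 45 and 46, at 18.97, 18.6, 21.9 and 23.7 CPM in wild type and 20.4, 83.6 and 38.3 CPM in FCPG.

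Wnt pathway genes were more often lower. Of 50 tested, 31 were lower with a median of -0.24. In every FCPG library 7 lay below wild type, 14% against 6.98%, and 3 lay above, 6% against 7.57%. Fzd3, a receptor, stood at 74.3, 64.9, 92.8 and 56.7 CPM in wild type and 43.2, 20.4 and 25.2 CPM in FCPG, with an adjusted p of 0.109 in edgeR and 0.00295 in DESeq2. Fzd1 stood at 36.5, 30.6, 41.4 and 30.6 CPM in wild type and 21.8, 18.7 and 20.2 CPM in FCPG. The ligand Wnt2b and, with overlap, the receptor Fzd5 went the other way. Wnt2b stood at 1.16, 1.08, 1.09 and 2.12 CPM in wild type and 3.96, 12.7 and 2.79 CPM in FCPG, and Fzd5 at 3.07, 2.49, 3.74 and 5.69 CPM and 5.17, 15.6 and 8.93 CPM. The median was -0.11 without library 45 and -0.01 with the visceral endoderm level as a term.

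Of 35 BMP pathway genes, 24 were higher, with a median of 0.18, 0.17 without library 45 and 0.04 without library 46. Of the 35, 1 lay above wild type in every FCPG library, 2.86% against 7.57% of all genes, and 3 below, 8.57% against 6.98%. These shares did not exceed the background by much. Gdf11, the ligand of the trunk-to-tail transition, stood at 69.2, 57.7, 77.6 and 28.2 CPM in wild type and 25.7, 4.96 and 14.1 CPM in FCPG. Bmp6 and Bmp5 had log2 differences of 2.06 and 1.12 and overlapped. Gas1, a hedgehog co-receptor, stood at 79.8, 81.2, 123 and 47.3 CPM in wild type and 32.5, 15.8 and 37.9 CPM in FCPG, and its log2 difference of -1.53 became 0.07 with the visceral endoderm level as a term. Efna3, a GPI-anchored ephrin, stood at 19.7, 21.6, 16.8 and 13.6 CPM in wild type and 9.498, 10.99 and 5.53 CPM in FCPG. Efnb1, an X-linked ephrin, stood at 76.6, 80.2, 56.4 and 101 CPM in wild type and 87.96, 272 and 217 CPM in FCPG. The retinoic acid list had 6 of 21 genes higher and a median of -0.29, -0.08 without library 45 and -0.72 without library 19.

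Collagen genes were more often lower than higher in FCPG. Of 34 collagen genes, 28 were lower, with a median log2 difference of -0.53, but only 3 lay below wild type in every FCPG library, 8.82% against 6.98%. Col3a1, a fibrillar collagen, stood at 80.2, 108, 119.6 and 7.86 CPM in wild type and 4.12, 5.73 and 1.701 CPM in FCPG. Postn, the matrix protein periostin, stood at 104, 79.5, 113 and 7.09 CPM in wild type and 2.59, 6.62 and 5.59 CPM in FCPG. In both genes library 33 lay far below the other 3 wild-type libraries and just above the FCPG range, and edgeR's adjusted p were 0.117 and 0.135. Adamts18, a secreted protease, stood at 2.27, 3.61, 5.33 and 1.55 CPM in wild type and 0.844, 0.827 and 0.304 CPM in FCPG. The collagen median was -0.46 without library 45 and 0.16 with the visceral endoderm level as a term. The wider matrix list had 19 genes higher and 28 lower, with a median of -0.27 that was -0.29 without library 45, -0.13 without library 19, -0.09 without wild-type library 26 and 0.14 with the visceral endoderm level as a term. Its summed level was 5078, 5043, 5554 and 4788 CPM in wild type and 3728, 7330.3 and 5676 CPM in FCPG, highest in library 45.

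The intermediate mesoderm, which forms the kidney, had 10 of 14 genes lower and a median of -0.95, -0.62 without library 45 and -0.07 with the visceral endoderm level as a term. Pax8, a kidney lineage factor, stood at 5.81, 5.68, 2.02 and 1.19 CPM in wild type and 0.317, 0 and 0 CPM in FCPG. Emx2 stood at 8.61, 7.09, 7.63 and 0.621 CPM in wild type and 0.422, 0.532 and 0 CPM in FCPG. Sall1 stood at 251, 214, 255 and 163 CPM in wild type and 134, 59.2 and 110.4 CPM in FCPG. Pax8 and Emx2 were at or near 0 in all FCPG libraries, and library 33 was the lowest wild-type library in all 3 genes.

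Blood genes were lower in FCPG. Of 26 tested, 19 were lower, the median was -1.41, and 6 lay below wild type in every FCPG library, 23.1% against 6.98%. The median was -1.19 without library 45, -2.23 without library 19, -0.29 without wild-type library 26 and 0.01 with the visceral endoderm level as a term. The summed level of the list was 967, 805, 3948 and 566 CPM in wild type and 502, 503 and 323 CPM in FCPG. Slc4a1, the anion exchanger of red cells, stood at 15.8, 9.76, 80.5 and 1.19 CPM in wild type and 0.211, 0 and 0.7898 CPM in FCPG. Hba-a1, an alpha globin that shares reads with its near-identical copy, stood at 45.4, 60.6, 201 and 12.4 CPM in wild type and 7.49, 13.2 and 6.5 CPM in FCPG. Wild-type library 26 was the highest and library 33 the lowest of its group in both. Runx1, a factor of blood and endothelium, went the other way, at 2.06, 2.02, 3.39 and 2.95 CPM in wild type and 6.44, 37.7 and 5.22 CPM in FCPG. Endothelial genes were mixed, with 12 higher and 17 lower and a median of -0.35, -0.60 without library 45, -0.16 without library 19 and -0.11 without wild-type library 26. Notch4 and Emcn, vessel genes, had log2 differences of -1.84 and -5.57 and overlapped between groups, while Apln, the apelin ligand, stood at 11.7, 16.1, 20.9 and 23.3 CPM in wild type and 55.4, 141 and 26.6 CPM in FCPG.

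The lateral plate list was mixed as well, with 14 of 22 genes higher and a median of 0.26, 0.33 without library 45, 0.53 without library 19 and -0.69 without library 46. Neural tube genes had 18 of 21 lower and a median of -1.26, -1.16 without library 45, -2.39 without library 19 and 0.05 with the visceral endoderm level as a term. Of the 21, 1 lay below wild type in every FCPG library, 4.76% against 6.98% of all genes. Tbx3 stood at 66.1, 69.9, 40.4 and 95.98 CPM in wild type and 72.1, 225 and 191 CPM in FCPG. Gata4, also made in visceral endoderm, stood at 14.01, 7.56, 3.31 and 56.7 CPM in wild type and 39.3, 242 and 136 CPM in FCPG, and its log2 difference was 0.06 with the visceral endoderm level as a term. Neither separated the groups.

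**Figure D5:**
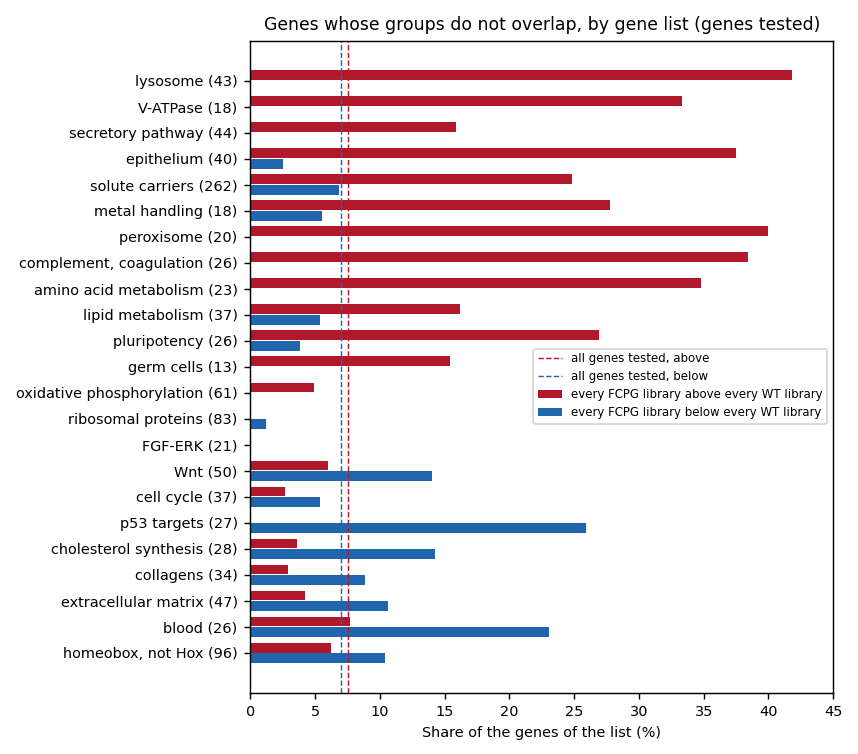
Share of the tested genes of each list for which every FCPG library lies above (red) or below (blue) every wild-type library in TMM-scaled CPM; dashed lines are the same shares over all genes tested, 7.57% and 6.98%. Lysosome genes reach 41.9% above and p53 target genes 25.9% below, and both FGF-ERK shares are 0.

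Several large housekeeping groups stayed near the background. Ribosomal protein genes had 68 of 83 lower with a median of -0.11, -0.04 without library 45, and 1 of them lay below wild type in every FCPG library, 1.20% against 6.98%. This median was 0.15 in FCPG library 19 and -0.29 and -0.26 in libraries 45 and 46. Oxidative phosphorylation genes had 51 of 61 higher with a median of 0.11, 0.05 without library 45, and 3 lay above wild type in every FCPG library, 4.92% against 7.57%. Its medians were 0.19, 0.24 and -0.11 in FCPG libraries 19, 45 and 46. Proteasome genes had a median of -0.05, -0.06 without library 45, and 0 members separated in either direction, against 14.5% of all genes. Some smaller lists of other kinds had medians of 0.18 for the unfolded protein response, -0.29 for hypoxia, 0.43 for interferon, -0.06 for ATF4 targets and 0.03 for apoptosis genes. These lists had medians of -0.08, -0.23, 0.05, -0.03 and 0.03 without library 45, so that the sign of the unfolded protein response turned. Of 24 interferon genes, 16 were higher, and 4.17% lay above and 8.33% below wild type in every FCPG library. Of 26 hypoxia genes, 16 were lower, and both shares were 3.85%, against 7.57% and 6.98% of all genes.

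Of transcription factors, homeobox genes outside the Hox clusters had 61 of 96 lower, with a median of -0.44, and 10 lay below wild type in every FCPG library, 10.4% against 6.98%. The homeobox median was -0.19 without library 45 and -0.08 with the visceral endoderm level as a term. C2H2 zinc finger genes had a median of -0.08 over 510 genes, -0.05 without library 45, and 58 of them, 11.4% against 6.98%, lay below wild type. Ikzf2, a zinc finger factor, stood at 6.501, 5.59, 6.58 and 4.29 CPM in wild type and 2.96, 2.36 and 2.61 CPM in FCPG. Plagl2, a zinc finger factor of the PLAG family, stood at 103, 91.9, 136 and 93.5 CPM in wild type and 74.9, 43.6 and 49.8 CPM in FCPG. Both were narrow in their ranges and separate between groups. The forkhead factor gene Foxo4, X-linked and restrained by AKT, stood at 159, 147, 153 and 156 CPM in wild type and 190.0, 631 and 356 CPM in FCPG. Cbx7, a Polycomb reader protein, stood at 4.92, 6.95, 3.66 and 13.6 CPM in wild type and 21.8, 50.3 and 26.2 CPM in FCPG.

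Imprinted genes, which are expressed from 1 parental copy, had 17 members higher and 16 lower, with a median of 0.10, 0.06 without library 45 and -0.26 without library 46. Plagl1, a paternally expressed growth regulator, stood at 108, 68.9, 152 and 30.5 CPM in wild type and 20.6, 13.7 and 29.6 CPM in FCPG. Meg3, a maternally expressed long RNA, stood at 295, 372, 242 and 272 CPM in wild type and 257, 991 and 773 CPM in FCPG. Impact stood at 73.9, 71.2, 85.7 and 75.2 CPM in wild type and 89.9, 136 and 122 CPM in FCPG. Plagl1 and Impact separated the groups in opposite directions, and Meg3 was high in FCPG libraries 45 and 46 alone.

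Genes of the X chromosome lay above wild type in every FCPG library in 68 of 597 cases, 11.4% against 7.57% of all genes, and below in 40, 6.70% against 6.98%. Embryo sex differs between the groups, with 2 of 3 FCPG and 0 of 4 wild-type libraries male. Genotype and sex are therefore partly confounded, for genes of the other chromosomes as well as for this one. With embryo sex as a term, 12 of 112 list medians changed sign. Long noncoding RNA genes were separated downward in 97 of 1184 cases, 8.19%, and upward in 44, 3.72%.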

How the data were processed

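RNA of microdissected tailbud was profiled in 11 libraries. Per the submitters' processing notes, the authors aligned reads with HISAT2 to build mm39, counted them with featureCounts and compared groups with DESeq2; versions, annotation and strand setting are not given in the sources used here, so overlapping and antisense genes and near-identical copies are uncertain. The deposited counts are whole numbers per gene for 56748 genes. The authors' deposited comparison table gives a log2 fold change, wild type over FCPG and turned here, with a p-value; it lists 3723 genes, and DESeq2 1.42.0 run here on the same 7 libraries gave p-values equal within 1e-06 for 100% of them. Sample titles and count columns are numbered differently, and libraries are named by column, with 0 columns left over.

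Here, edgeR 4.0.16 (R 4.3.3) fitted all 11 libraries with TMM factors, after filterByExpr had kept 16572 genes, and FCPG was tested against wild type with the quasi-likelihood F test, two-sided, adjusted by the Benjamini-Hochberg method at 0.05. The fit was tested on simulated data. The biological coefficient of variation between libraries, the square root of edgeR's common dispersion, was 0.325. Limma 3.58.1 and DESeq2 were alternatives, with other scalings, filters, covariates and left-out libraries.

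The members and gene lists were chosen with earlier results of these data known. Named genes are Fgfr1, the 12 higher and 12 lower protein-coding genes of smallest p with separate groups and a mean of at least 5 CPM, outside the visceral endoderm, Notch, somite, Hox and lipoprotein export lists, up to 4 genes of smallest p per list or family, 2 per transcription factor family, and all cholesterol genes; the text uses a part of them, and a few are not reported here. Named outside this rule, after their values were seen, were Cdkn1a, Cdx4, Cldn4, Cldn9, Crkl, Ctsd, Etv5, Fgf8, Fgfr2, Frs2, Gla, Grb2, Gusb, Ikzf2, Mdm2, Naglu, Plagl2, Plcg1, Pou5f1, Scarb2, Sox2, Spry2, Spry4, Tfec and Wnt3a. Lists were described by counts and medians with no test.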

Additional observations from a re-analysis of the deposited data

Results flagged for a closer look

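Among 157 genes named with values, the wild-type group of 4 was searched for a library whose gap to the nearest other exceeds Dixon's 95% critical share of the group's range, which chance gives in about 5% of groups. It was found in 10 genes, of which 6 were for wild-type library 33, 3 for library 26 and 1 for library 25. Library 33 stood above the other 3 in Pou5f1 at 75.0 CPM, Ass1 at 10.97 CPM, Prss12 at 2.95 CPM, F10 at 2.33 CPM and Wnt2b at 2.12 CPM. It stood below them in Litaf at 49.6 CPM. In Pou5f1 it lay within the FCPG range. Library 26 stood above in Cebpg at 79.0 CPM and below in Dgat2 at 17.9 CPM and Otc at 0 CPM. Library 25 stood above in Fgf8 at 52.0 CPM.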

How the results depend on the processing

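No paired analysis was possible because the count columns carry other numbers than the sample titles. Against 0 genes in the main test, DESeq2 called 1442 on all 3 groups and 1200 on the 7 libraries, limma-voom with quality weights 4031, edgeR with no filter 403 and the female libraries alone, with 1 FCPG library assumed to vary like the others, 144. Leaving out 1 library gave 0 to 2736 calls, 2736 without FCPG library 19 and 4 without wild-type library 33; other scalings, a CPM filter, the 7 libraries alone, limma-voom, a minimum log2 change of 1, embryo sex and the visceral endoderm level as terms gave 0. Genes with separate groups numbered 2411, and 2632 to 6710 when 1 library was left out, which relaxes the condition by its construction; without wild-type library 33 they were 4507 and without FCPG library 46 3939.

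Of 157 named genes, 24 changed sign under some setting, each with an uncalled difference. With the visceral endoderm level as a term, log2 differences were -0.14 for Kdelr3, 0.00092 for Zeb1, -0.015 for Mt1, -0.12 for Trap1a, -0.14 for Cdkn2a, 0.067 for Gas1, -0.032 for Cldn6, -0.27 for Cldn7, -0.16 for Ctsd, -0.16 for Etv5, 0.29 for Fgf8, 0.32 for Fgfr2, -0.14 for Gla, 0.051 for Grb2, 0.23 for Naglu, 0.13 for Plcg1, 0.061 for Scarb2, 0.51 for Sox2 and -0.21 for Spry2. With embryo sex as a term they were -0.19 for Fgfr1, -0.045 for Cdkn1a, 0.040 for Fgf8 and -0.049 for Gla. In the female libraries alone they were -0.081 for Fgfr1, -0.22 for Cdkn1a, 0.025 for Fgfr2, -0.19 for Gla, 0.10 for Plcg1 and 0.11 for Spry4. Quality weights gave 0.026 for Crkl and -0.21 for Gla; Spry2 was -0.0058 with no filter and -0.014 with total counts. Leaving out 1 library gave -0.098 to 0.14 for Fgfr1, -0.46 to 3.8 for Prdm14, -0.063 to 0.39 for Cdkn1a, -0.12 to 0.039 for Crkl, -0.074 to 0.016 for Grb2, -0.68 to 0.016 for Naglu and -0.14 to 0.13 for Spry2. The cause of these changes was not tested. List medians changed sign in 47 of 112 lists with the visceral endoderm level as a term and in 0 to 18 under the other settings. Depth limits the low genes, such as Otc and Slc52a3.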
